A study of Bos taurus with 4 samples.

Results

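The genes examined here encode the ATG8 family of autophagy proteins and core components of the autophagy machinery. They are GABARAPL1, GABARAP, GABARAPL2, MAP1LC3A, MAP1LC3B, SQSTM1, BECN1, BNIP3, ATG5 and ATG12. Of these 10 genes, 7 had a probe whose RefSeq accession matched the gene symbol, out of 7788 symbols matched on the array, and each of the 7 had a single probe printed as 2 spots. MAP1LC3B, SQSTM1 and ATG12 had no matched probe and were not analysed here. The genes were picked by function and with their ratios between the breeds already known, and GABARAPL1 was singled out against its paralogues for the size of its ratio, so the values of these 7 genes are given as a description, without tests.

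The samples were semitendinosus muscle of the thigh from Limousin (LIM) bulls, a beef breed, and from Holstein-Friesian (HF) bulls, a dairy breed, all 15 months old and with no treatment named in the labels. On each of 4 two-colour microarrays 1 LIM bull (Cy5, the red dye) was set against 1 HF bull (Cy3, the green dye), and the muscle had been dissected free of fat and connective tissue before RNA was extracted. The question was how gene expression in mature muscle differs with breed and performance. There was no dye-swapped array, and an effect of breed cannot be told apart from one of dye. Each ratio below is the LIM signal over the HF signal on a log2 scale, and a negative value means a lower signal in the LIM channel. For 12 of 12 other genes whose direction the study's text gives, the sign obtained from the dye labels was the opposite of that text (10 of 12 with median centring of the arrays), so every direction below rests on the dye labels. The study also reports qPCR in the direction of its text for genes it selected, FST and MSTN among them, and less myostatin protein in both beef breeds by Western blot. Those assays do not depend on the dye labels of the arrays. Whether the labels or the text hold the right direction was not tested here, so every direction below may be the reverse. The study's text gives no direction for the 7 genes measured here. Of the pathway genes described further on, it gives a direction for CTSD and TRIM63, higher in beef breeds. Both were below 0 here with loess (CTSD turned to 0.21 with median centring). CTSD was among the 12 genes counted above and TRIM63 was not. The study also lists DDIT4 and BCL2L1 among its differentially expressed genes, with no direction in its text.

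Autophagy encloses cytoplasm and organelles in a double membrane, the autophagosome, and delivers them to the lysosome for degradation. ATG8 proteins, which comprise the LC3 and GABARAP subfamilies, are small ubiquitin-like proteins that become attached to a lipid of the growing membrane, where they hold cargo receptors and help the autophagosome to close and fuse. In skeletal muscle the pathway removes damaged mitochondria and protein, and in mice it is activated by fasting and denervation through FOXO transcription factors, with GABARAPL1, MAP1LC3B and BNIP3 among their known targets.

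The 4 arrays held 42990 bovine spots each, of which 32513 to 33527 exceeded background clearly in LIM and 27102 to 28769 in HF, and their small number limits the precision. Across probes, which are not independent replicates, pairs of arrays had correlations of 0.40 to 0.60 (Pearson's r). The 8 measured markers of skeletal muscle, among them ACTA1, CKM and MYH2, were clearly above background on every array in either breed, with a median log2 ratio of 0.016, and MB, myoglobin, was the one of them called higher in LIM. Of markers of other cell types, the 5 fibroblast genes had a median of 1.14 with COL3A1 higher in LIM, and the 3 macrophage genes had a median of -0.49 with none past the test of all probes (limma, adjusted p under 0.05). The summed fibroblast level was 14.48 to 15.45 log2 units in LIM and 13.31 to 14.60 in HF, and the summed macrophage level was 10.04 to 10.63 in LIM and 10.29 to 11.55 in HF. The 3 adipocyte genes had a median of 0.26 with both signs among the arrays (list sum 10.11 to 11.22 in LIM and 11.12 to 11.92 in HF), 1 of them, CFD, was called lower in LIM, and neither the endothelial gene KDR nor the 2 haemoglobin genes passed. The part of these cells in the values below was not tested, and in whole tissue fewer cells of a type and less RNA per cell cannot be told apart.

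GABARAPL1 had the lowest ratio of the 7 genes. Its probe (A_73_107041, for transcript NM_001033616) had unnormalised spot signals of 5508, 5350, 3604 and 5752 in the LIM channel of arrays 1 to 4, against 11996, 6438, 1999 and 3951 in the HF channel. The LIM signal was thus the lower one on arrays 1 and 2 and the higher one on arrays 3 and 4. The other 6 genes were brighter in the red LIM channel on every array, and the within-array normalization by loess sets the bulk of probes to a ratio near 0 at each level of brightness. After it, the LIM intensities of GABARAPL1 were 11.91, 11.64, 10.81 and 11.77 log2 units, against 14.08, 13.39, 11.98 and 12.67 in HF. No LIM value reached the lowest HF value, but the nearest 2, 11.91 and 11.98, are from arrays 1 and 3, and the intensities were not scaled between arrays. The unnormalised signals of the LIM and HF channels overlapped. The log2 ratios were -2.17, -1.76, -1.16 and -0.90 on arrays 1 to 4, with a mean of -1.50 ± 0.22 (moderated SE, n = 4), which is a 2.82-fold higher normalised signal in HF. The 2 spots of the probe differed by 0.027 to 0.088 on each array, much less than the arrays differed from each other.

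Most of the spread of GABARAPL1 lay in the HF channel. The normalised intensity covered 1.09 log2 units over the 4 LIM channels (a 2.13-fold range) and 2.10 log2 units over the 4 HF channels (a 4.28-fold range). An HF range at least this wide was seen in 0.58% of the 15855 probes kept, and a LIM range at least as wide as that of GABARAPL1 in 2.33%. The HF range was wider than the LIM range in 6 of the 7 genes and in 62.2% of all probes kept, whose median ranges were 0.44 in LIM and 0.51 in HF. On array 1, where the ratio of GABARAPL1 was lowest, HF had its highest value, and on array 3 both channels had their lowest.

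**Figure D1:**
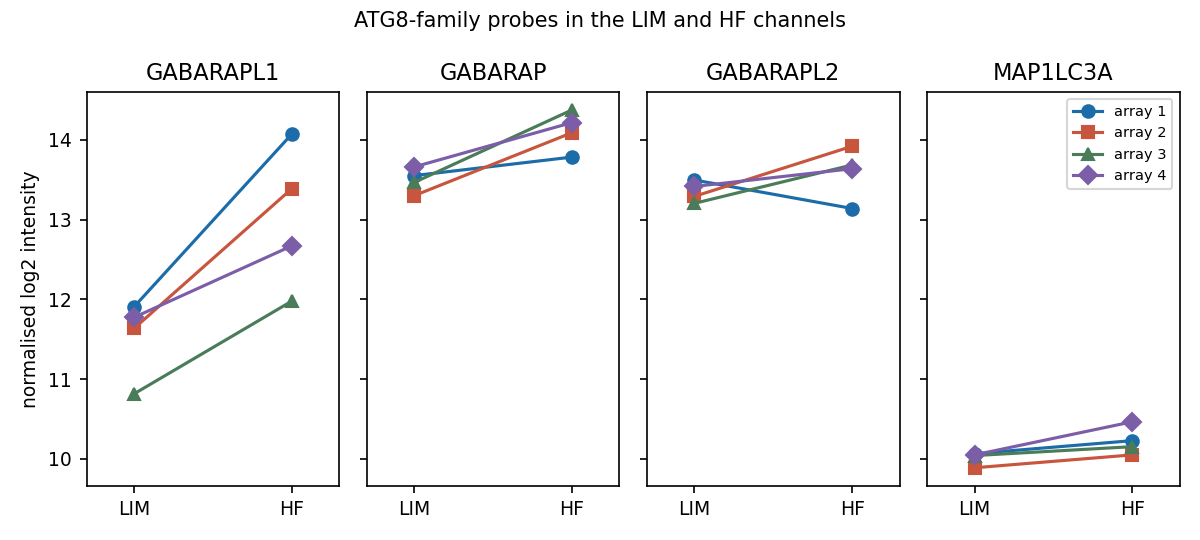
Normalised log2 intensity (vertical axis) of the 4 measured ATG8 genes in the LIM (left) and HF (right) channels, with a line for each of the 4 arrays. GABARAPL1 lies between 10.81 and 11.91 in LIM and spreads from 11.98 to 14.08 in HF, while GABARAPL2 on array 1 is the one line of the 4 panels that is higher in LIM (13.50) than in HF (13.14).

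GABARAP, the founding member of its subfamily, also had a lower normalised signal in LIM on each array. Its normalised intensities were 13.55, 13.30, 13.47 and 13.66 in LIM, against 13.79, 14.09, 14.38 and 14.22 in HF. The channels did not overlap in these values, which were not scaled between arrays. The unnormalised LIM signal of GABARAP was instead the higher one on every array, by 1.68-fold to 2.46-fold after background subtraction. The ratios were -0.23, -0.79, -0.91 and -0.56, with a mean of -0.62 ± 0.13 (moderated SE, n = 4), but the mean was 0.059 where arrays were centred on their median instead of by loess, so the sign of GABARAP depends on how the dyes are balanced. The lowest ratio of GABARAP was on array 3 and the highest on array 1, where GABARAPL1 had its lowest.

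GABARAPL2, also known as GATE-16, showed both signs. Its intensities were 13.50, 13.29, 13.20 and 13.42 in LIM, against 13.14, 13.92, 13.69 and 13.64 in HF. The ratio was 0.36 on array 1 and -0.63, -0.48 and -0.22 on arrays 2 to 4, and its mean of -0.24 ± 0.17 was smaller than its SD between arrays of 0.44. With median centring the mean turned to 0.43, and with loess it was -0.45 without array 1 and -0.12 without array 2. The LIM values lay close together, within 0.29 log2 units, and the channels overlapped because the HF value of array 1 was low.

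MAP1LC3A, the LC3 protein measured here, was below 0 on each array, by little. It had intensities of 10.06, 9.89, 10.04 and 10.05 in LIM, against 10.23, 10.05, 10.15 and 10.46 in HF. Its ratios were -0.16, -0.16, -0.11 and -0.42 on arrays 1 to 4, with a mean of -0.21 ± 0.076 (0.37 with median centring). The channels overlapped, and the SD between arrays of 0.14 was the smallest of the 7 genes.

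BECN1 encodes Beclin 1, a subunit of the lipid kinase complex that starts the autophagosome. This probe was dim, with intensities of 7.91, 7.80, 7.79 and 7.80 in LIM, against 7.84, 8.20, 8.18 and 8.05 in HF. The ratios were 0.067, -0.40, -0.39 and -0.26, with a mean of -0.25 ± 0.099 (0.11 with median centring), and the 2 spots of the probe differed by up to 0.30 on an array. The scanner software's processed signals gave -0.37.

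ATG5, which with ATG12 forms the conjugate that directs ATG8 proteins onto the membrane, was the gene with the highest mean ratio. Its intensities were 8.25, 7.95, 8.08 and 8.29 in LIM, against 7.84, 7.84, 8.12 and 7.97 in HF, so that the channels overlapped. Its ratios were 0.40, 0.11, -0.042 and 0.32, with a mean of 0.20 ± 0.094 (0.35 with processed signals, 0.56 with median centring and 0.13 without array 1). It was above 0 on 3 of 4 arrays.

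BNIP3, a receptor of the outer mitochondrial membrane that binds ATG8 proteins in mitophagy, differed most between arrays. It had intensities of 13.10, 12.51, 12.61 and 13.07 in LIM, against 12.23, 12.85, 13.03 and 12.93 in HF. The ratios were 0.86, -0.33, -0.43 and 0.14, and the mean of 0.060 ± 0.23 was below the SD between arrays of 0.59 with loess. With median centring the mean was 0.72 and BNIP3 was among the called probes, as were 24.0% of all probes. Arrays 1 and 4 lay above 0 and arrays 2 and 3 below it. With loess the mean was -0.21 without array 1, 0.19 without array 2 and 0.22 without array 3.

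**Figure D2:**
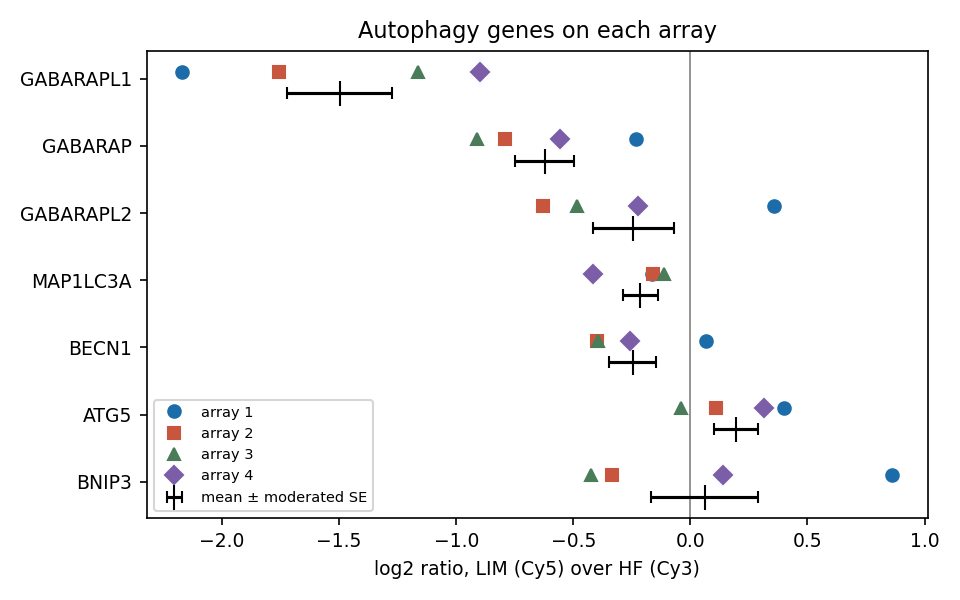
Log2 ratio of LIM over HF (horizontal axis) of the 7 measured genes, with a symbol for each of the 4 arrays and the mean with its moderated SE below them. GABARAPL1 lies between -2.17 and -0.90, below the other genes on each array, with GABARAP on array 3 the nearest, 0.25 away.

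Taking the 7 genes together, 5 had a mean below 0, 3 were below 0 on every array (GABARAPL1, GABARAP and MAP1LC3A), none was above 0 on every array, and 4 had both signs. Over all probes kept, 15.7% were below 0 on every array and 21.2% above 0. In normalised intensities, not scaled between arrays, the channels did not overlap in 2 of the 7 genes. Every LIM value lay below every HF value in 4.86% of all probes kept and above in 6.48%. In the fit of all probes (limma, Benjamini-Hochberg adjusted p under 0.05) 1 of the 7, GABARAPL1, was among the called probes, against 5.47% of all probes (2.51% lower and 2.96% higher in LIM). That count describes the choice of genes and nothing is read from it. Without any one of the 4 arrays it was 0, where 0 to 0.32% of all probes were called. At an unadjusted p under 0.05 (limma) 2 to 4 of the 7 passed without 1 array, beside 20.1% to 24.7% of all probes. The median of the 7 means was -0.24, against 0.018 for all probes kept and 0.0029 for all genes with a kept probe. Ranked from the lowest mean ratio among 6376 genes, GABARAPL1 stood at place 30, GABARAP at 239, BECN1 at 1094, GABARAPL2 at 1104, MAP1LC3A at 1274, BNIP3 at 3886 and ATG5 at 5125. In that order BECN1, GABARAPL2 and MAP1LC3A differed by less than their standard errors, and BNIP3 differed from its neighbours MAP1LC3A and ATG5 by less than its SD.

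The arrays ordered these genes differently. Array 1 held the highest ratio of 5 of the 7 genes, namely GABARAP, GABARAPL2, BECN1, BNIP3 and ATG5, and the lowest of 1, GABARAPL1. Without GABARAPL1 the median of the other 6 genes was 0.21 on array 1 and -0.37, -0.41 and -0.24 on arrays 2 to 4. With 1 pair of bulls on each array, a pair and its array cannot be told apart.

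GABARAPL1 was set against its paralogues within each array, which removes a shift common to the array. Its ratio minus that of GABARAP was -1.94, -0.96, -0.25 and -0.34 on arrays 1 to 4. GABARAP is the protein nearest to GABARAPL1 in the family. Against GABARAPL2 the difference was -2.53, -1.13, -0.68 and -0.67, and against MAP1LC3A it was -2.01, -1.59, -1.05 and -0.48. All 12 of these differences were below 0. Against the mean of the 3 paralogues the difference was -2.16, -1.23, -0.66 and -0.50, with a mean of -1.14 ± 0.75 (SD, n = 4), a ratio 2.20-fold lower for GABARAPL1. This mean was -1.16 with median centring, where the signs of the 3 paralogues turned, and between -1.35 and -0.80 over the 13 other settings, with -0.80 obtained without array 1. Some of these settings, such as the changed probe filters and the unpaired fit, cannot change it. Arrays 1 and 2 held the larger differences, and arrays 3 and 4 the smaller ones. A ratio within an array shows that the probes changed unequally, and a dye bias of the GABARAPL1 probe cannot be told apart from breed in this design.

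**Figure D3:**
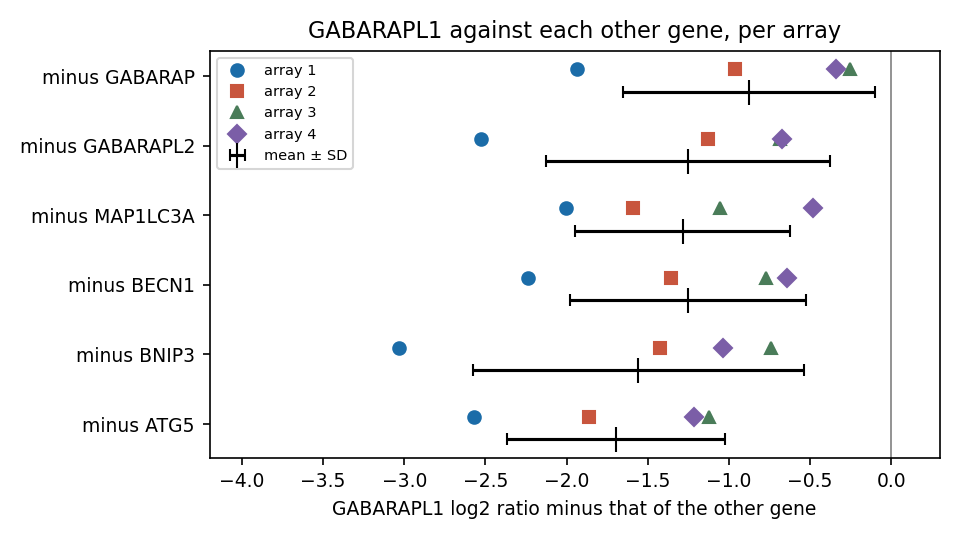
Log2 ratio of GABARAPL1 minus that of each other measured gene (horizontal axis), with a symbol for each of the 4 arrays and the mean with its SD below them. Every difference lies below 0, from -3.03 against BNIP3 on array 1 to -0.25 against GABARAP on array 3.

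GABARAPL1 also stood lowest in the unnormalised signals. The background-subtracted LIM signal over the HF signal was 0.46, 0.83, 1.81 and 1.46 for GABARAPL1 on arrays 1 to 4. For the other 6 genes it lay between 1.68 (GABARAP on array 2) and 3.88 (BNIP3 on array 1). Within each array GABARAPL1 thus had the lowest value of the 7 genes before any dye correction. With median centring GABARAPL1 had a mean of -0.87 and was not among the called probes. The other 6 genes lay between 0.059 (GABARAP) and 0.72 (BNIP3), and the median of all probes kept moved to 0.25 from 0.018.

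**Figure D4:**
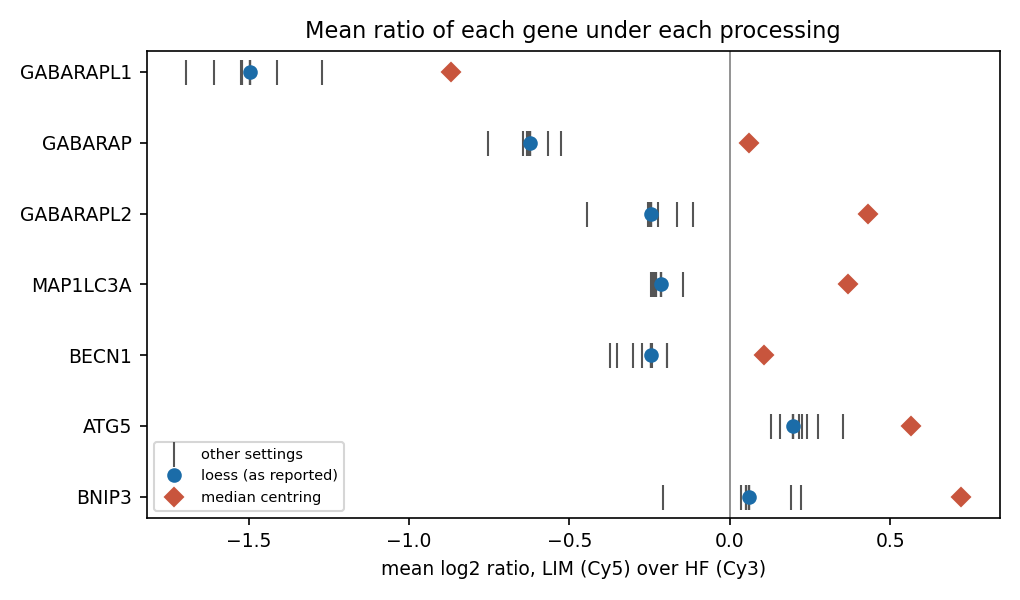
Mean log2 ratio of LIM over HF (horizontal axis) of the 7 measured genes with loess (circles), with median centring (diamonds) and under the other settings (ticks). GABARAPL1 stays below 0 at -0.87 with median centring, while GABARAP, GABARAPL2, MAP1LC3A and BECN1 turn to values between 0.059 and 0.43.

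The other genes of the pathway were tested in the fit of all probes, by lists grouped by role, which were chosen with earlier results of these data known. Of 36 measured genes of the machinery from initiation to the lysosome, 1 passed the test as lower in LIM and 0 as higher, and 35 did not pass (limma), where 5.93% of all 6376 genes were called (3.15% lower and 2.78% higher). At an unadjusted p under 0.05 (limma), 5 were lower and 2 higher, where 28.9% of all genes passed (14.6% lower and 14.3% higher). With the methods' t-test at an unadjusted p under 0.05, without its fold threshold, 4 were lower and 1 higher, where 21.9% of all genes passed. With median centring 27.2% of all genes were called, 25.5% as higher, and the counts of the lists changed with it. With loess the median of the 36 genes was -0.041, against 0.0029 for all genes with a kept probe.

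In the initiation complex, which receives the signal to start autophagy, 0 of 3 measured genes passed. RB1CC1, the scaffold FIP200, had ratios of 0.10, 0.36, 0.58 and 0.18 (mean 0.31 ± 0.097, limma adjusted p = 0.127). With median centring 2 of the 3, RB1CC1 (0.88, adjusted p = 0.0375) and ATG101, were called higher. Of 4 genes of the PI3-kinase complex and its regulators 0 passed. BCL2L1, a relative of BCL2 that binds Beclin 1, had -0.52, -0.57, -0.21 and -0.30 (mean -0.40 ± 0.085, adjusted p = 0.0622), and it was above 0 with median centring. Of 4 genes for the conjugation and processing of ATG8 proteins 0 passed by either adjusted or unadjusted p (limma and the methods' t-test). ATG10, an enzyme that joins ATG12 to ATG5, had the smallest p of them, with a mean of 0.19 ± 0.080 (adjusted p = 0.208). With median centring 3 of the 4, ATG10 (0.70, adjusted p = 0.0221), ATG3 and ATG4C, were called higher. ATG3 and ATG7, which attach ATG8 proteins to lipid, had 0.16 ± 0.098 and -0.037 ± 0.067.

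Among genes of the membrane supply 0 of 4 passed. ATG9A, a lipid scramblase carried on vesicles, had -0.27 ± 0.085 (adjusted p = 0.129), and it turned to 0.39 with median centring, where 2 of the 4, WIPI1 and WDR45, were called higher. Of 7 cargo receptors and mitophagy genes 0 passed. OPTN, a receptor for ubiquitin-marked cargo, had 1.35, 0.21, -0.015 and 0.69 on arrays 1 to 4 (mean 0.56 ± 0.24, adjusted p = 0.204), and its mean was 0.30 without array 1. With median centring 3 of the 7, OPTN (1.23, adjusted p = 0.0106), NCOA4 and BNIP3L, were called higher. BNIP3L, the paralogue of BNIP3, had 0.67, -0.0080, 0.078 and -0.37 (mean 0.092 ± 0.17), again with its highest value on array 1. Of 6 genes for fusion with the lysosome 0 passed, and VPS11, a subunit of the tethering complexes, had -0.35 ± 0.082 (adjusted p = 0.0725) and 0.26 with median centring, where VPS18 was called higher.

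Of 8 lysosomal genes, CTSD, the protease cathepsin D, was lower in LIM. Its ratios were -0.38, -0.47, -0.54 and -0.45 on arrays 1 to 4, with a mean of -0.46 ± 0.060 (limma adjusted p = 0.028). They lay close together, but the mean was 0.21 with median centring. With any array left out the limma adjusted p was 0.0663 to 0.110, where only 0 to 51 of the 15855 probes kept passed. NPC2, a carrier of cholesterol out of the lysosome, had -0.19, -0.79, -1.08 and -0.55 (mean -0.65 ± 0.15, adjusted p = 0.0725). LAMP1 and LAMP2, proteins of the lysosomal membrane, had -0.17 ± 0.12 and 0.36 ± 0.23 and did not pass, but LAMP2 and MCOLN1 were called higher with median centring.

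Upstream of the machinery, 1 of 8 measured kinases and transcription factors passed with loess. With median centring RHEB (0.15 ± 0.097 with loess) was called higher. DDIT4 (REDD1), which restrains mTOR under stress, was lower in LIM, with ratios of -1.43, -2.61, -2.01 and -1.48 and a mean of -1.88 ± 0.21 (limma adjusted p = 0.0239). Of 7 measured genes listed as FOXO and fasting targets of muscle, 2 were lower and 0 higher. At an unadjusted p under 0.05 (limma) 3 were lower and 0 higher, also with the methods' t-test without its fold threshold. The shares of all genes are given above. Of the 7, 5 had a mean below 0 with loess. With median centring 1, PDK4, was lower and 2, CDKN1A and PSMD11, were higher. With loess CDKN1A had 0.39 ± 0.17 and PSMD11 had 0.25 ± 0.13, and neither passed. PDK4, a kinase that inhibits pyruvate dehydrogenase, had ratios of -4.16, -4.16, -2.18 and -1.71 (mean -3.05 ± 0.49, adjusted p = 0.0402), so that arrays 1 and 2 were lowest, as for GABARAPL1. GADD45A, a stress-induced gene that is raised in denervated muscle of mice, had -0.81, -1.26, -1.71 and -0.58 (mean -1.09 ± 0.20, adjusted p = 0.0474). TRIM63, the ubiquitin ligase MuRF1, had -1.49, -1.54, -0.28 and -0.97 (mean -1.07 ± 0.23, adjusted p = 0.0625). The list median was -0.16. DDIT4, PDK4 and GADD45A kept a ratio below 0 with median centring (-1.21, -2.47 and -0.46, with GADD45A no longer past the test). Each lost its call with any array left out, where only 0 to 51 of the 15855 probes kept were called.

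**Figure D5:**
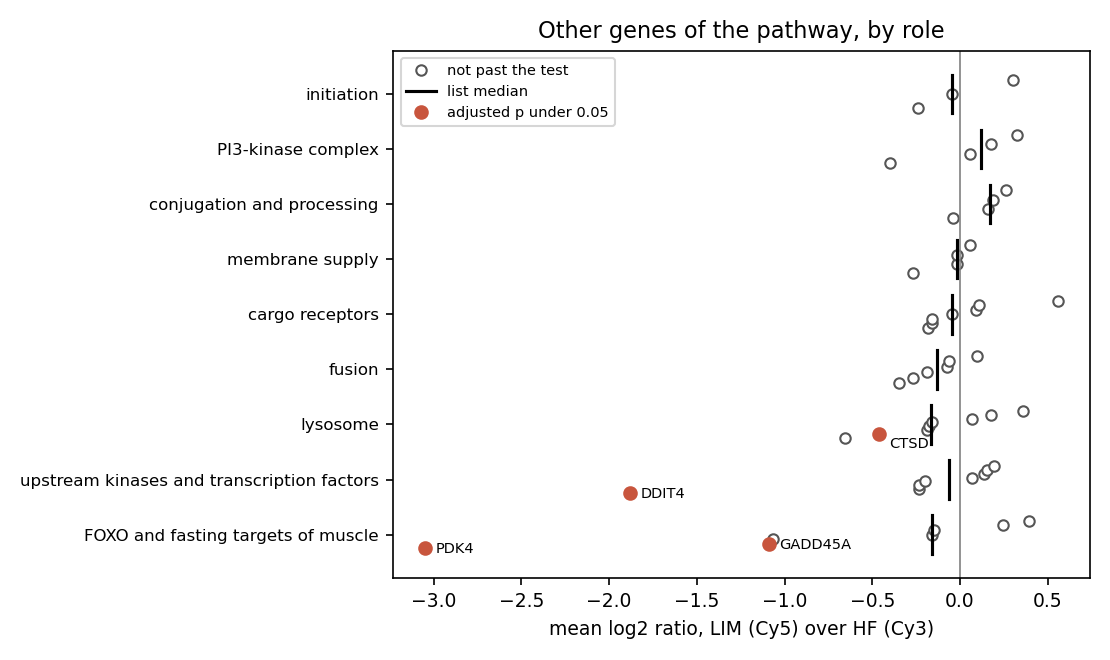
Mean log2 ratio of LIM over HF (horizontal axis) of the other measured genes of the pathway, by role (vertical axis). Filled circles passed the test of all probes (PDK4, DDIT4, GADD45A and CTSD, all below 0), open circles did not, and bars are the list medians, which lie between -0.17 and 0.17.

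The genes whose ratios on the 4 arrays lay nearest those of GABARAPL1, by root mean square difference among 6369 other genes, were LMCD1 (0.18), PTX3 (0.19, above background in LIM on 3 arrays), OSR1 (0.23), ZBTB21 (0.28) and LMOD2 (0.30). LMCD1, a LIM-domain regulator of transcription, had -2.24, -1.91, -0.86 and -0.83, PTX3, a secreted pentraxin, -2.13, -1.82, -0.80 and -0.80, and LMOD2, a protein of the thin filament, -1.61, -1.73, -1.25 and -0.72. Like GABARAPL1, all 5 were lower on arrays 1 and 2 than on arrays 3 and 4, which follows from their choice by likeness on these same arrays. The genes nearest to GABARAP were PLEKHF2 (0.074), DTD1 (0.081), the lysosomal NPC2 (0.086), ZFYVE19 (0.086) and CPA3 (0.088), a protease of mast cells. They had their highest ratio on array 1, as GABARAP did, which again follows from the choice. These are likenesses over 4 arrays only.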

How the data were processed

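Per the labels, each array compared 1 LIM (Cy5) with 1 HF (Cy3) bull, in 4 biological replicates. Per the file headers, the authors quantified the spots with Feature Extraction 10.7.3.1. The deposited intensity values comprise raw median signals of spots and of their local background in each dye, and processed signals, which Feature Extraction corrected for background and dye. The log10 ratios the authors deposited divide processed red by processed green, and the series value table repeats them (difference 0, column medians 0).

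Background was corrected with limma's normexp (offset 50), and log2 ratios were normalized within arrays by loess with control spots at weight 0. Non-uniformity flags removed 5 to 10 spots on each array, none being saturated, and the remaining spots of each probe were averaged. A probe was kept if all its spots were well above background in 1 channel, the same one, on 3 or more arrays (15855 of 21475). A two-sided limma 3.58.1 test (lmFit, eBayes, R 4.3.3) of the mean ratio against 0 was adjusted by Benjamini-Hochberg across the probes kept, after being tested on simulated data. Errors are moderated standard errors unless given as SD.

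Probes were named by RefSeq accession from a gene table of ARS-UCD2.0, used for names only since the array design refers to another build. Names were found for 8297 probes. The brightest kept probe stood for a gene. The genes, lists and rules were chosen with earlier results of these data known. Named were all 10 genes, of each role list up to 3 genes past the test or else the one with the smallest p, and the 5 nearest to GABARAPL1 and to GABARAP. ATG3, ATG7, BNIP3L, NPC2, LAMP1, LAMP2, TRIM63, CDKN1A and PSMD11 were named after their values were seen, as were the markers and the genes called only under other settings. Of the 4 paralogues planned for the comparison with GABARAPL1, 3 had a probe.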

Additional observations from a re-analysis of the deposited data

Results flagged for a closer look

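Dixon's ratio, the gap of the most extreme array over the whole range, was above its critical value for 4 samples in 3 of the 32 sets of 4 values examined, where chance gives about 1 in 20. The ratio of MAP1LC3A had a Dixon ratio of 0.830, with -0.42 on array 4 against -0.16 to -0.11 on the others. The LIM intensity of MAP1LC3A had 0.866, with 9.89 on array 2 against 10.04 to 10.06. The LIM intensity of BECN1 had 0.906, with 7.91 on array 1 against 7.79 to 7.80.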

How the results depend on the processing

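Median centring instead of loess moved GABARAPL1 to -0.87 and the median of the 7 genes to 0.37, and it turned BCL2L1 (0.17), ATG9A (0.39), VPS11 (0.26) and CTSD (0.21). It called 3800 probes, 3525 of them higher (92.8%, against 54.1% of 868 with loess). Of the 51 measured pathway genes it called 2 lower and 16 higher, where 1.71% of all genes were called lower and 25.5% higher. Of the 7 genes it called 2, BNIP3 and ATG5, where 24.0% of all probes were called. The offset of 16, no background subtraction, the strict filter and the intensity trend with a robust prior each called 2, GABARAPL1 and GABARAP. In that order they called 6.85%, 6.38%, 8.01% and 8.25% of all probes. The t-test of the study's methods (p and fold thresholds) called the same 2, beside 1479 of 15855 probes. No filter on dim probes, channels fitted unpaired with no replicate block (1089 probes) and the methods' t-test after adjustment called 0 of the 7. Of all probes these called 3.02%, 6.87% and 0.0063%. Processed signals called 1347 probes (811 higher) and 1 of the 51 pathway genes as higher, CTSL, where 3.62% of all genes were called higher. The trend called 1308 probes (733 higher). The methods' t-test with its p and fold thresholds called 1479 (819 higher, 660 lower), and 7 of the 51 pathway genes as lower. After adjustment, without the fold threshold, it called 1 (1 higher, 0 lower, 0 pathway genes). At an unadjusted p under 0.05 it passed 3470 probes, and 10 of the 51 pathway genes beside 21.9% of all genes. No filter left 2 of the 51 pathway genes as lower, where 2.31% of all genes were called lower. Leaving out each array gave 0 to 51 probes (0 to 15 higher, 0 to 36 lower), 0 of the 7 genes and 0 pathway genes. At an unadjusted p under 0.05 (limma) 3184 to 3911 probes passed, and 9 to 15 of the 51 pathway genes beside 21.8% to 26.1% of all genes. Without any one array GABARAPL1 stayed between -1.70 and -1.27 and its difference from the paralogues between -1.35 and -0.80. The causes of these changes were not tested. GABARAPL1 was below 0 under all 13 settings that give a ratio, but some of these cannot change it. They are the changed probe filters, the trend with a robust prior, the unpaired fit and the mean over its single probe. All arrays lay on 1 slide, so a slide block was not run. The 2 dim probes, BECN1 and ATG5, limit what can be said of these genes.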
